A study of Mus musculus with 6 samples.

Results

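The CD4+ T cell receptor repertoire of the mouse spleen was divided by the number of molecules counted for each TCR-β clonotype, and the large clonotypes were compared with those seen as a single molecule. All clones with the same CDR3 nucleotides and the same V and J gene were counted as 1 clonotype, and those that do not encode a protein were left out. Each mRNA molecule carried a random tag (unique molecular identifier, UMI), so that PCR copies were counted once. Large clonotypes were chosen by a count of at least 10 UMIs and single clonotypes by a count of 1 UMI in the same spleen library. The spleens of mice 1, 2 and 3 gave 278, 424 and 61 large clonotypes, 763 in all, and 79371, 91252 and 63962 single clonotypes, of 109838, 140429 and 78078 coding clonotypes. The 6 libraries of the series together held 330061.

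The study asked how CD4+ T cells take part in fibrosis-memory, in which an earlier fibrotic injury worsens a later one. The mice were C57BL/6 wildtype, all 3 with the same injuries: a clip obstructed the right ureter from day 0 to day 6 (reversible unilateral ureteral obstruction, RUUO), the left ureter was ligated on day 17 (UUO), and organs were taken on day 22. CD4+ T cells were purified from each spleen with L3T4 microbeads and from kidneys in 2 bead steps, sorted by flow cytometry, and used for 5′ RACE of the TCR-β chain, 1 library per organ and mouse. No uninjured mouse was analysed here, so that no value below can be set against a repertoire without obstruction. TCR-β libraries hold no other transcript, and the sorted cell type could therefore not be checked against its markers.

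The CDR3 is the part of the TCR-β chain that touches the antigenic peptide most. It is built in the thymus by joining 1 V, 1 D and 1 J gene, with bases trimmed from the gene ends and non-templated bases added by terminal deoxynucleotidyl transferase, an enzyme that is low before birth. Joints with few added bases can be made in the same way by many cells and in many animals, and such shared receptors are called public. The UMIs of a clonotype may thus come from a cell clone, from several cells that made the same joint, or from more mRNA per cell, and these cannot be told apart here. On GRCm38 (RefSeq), the genes lie on chromosome 6: Trbv1 is the outermost V gene (chr6:40891296-40891885), Trbd1 (chr6:41533201-41533212) precedes the Trbj1 cluster, Trbd2 (chr6:41542163-41542176) precedes the Trbj2 cluster, and Trbv31 (chr6:41557693-41558371) lies behind all of these, in inverted orientation.

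Large clonotypes were few and held little of the repertoire. They made up 0.253%, 0.302% and 0.0781% of the clonotypes of spleens 1, 2 and 3 and 3.86%, 3.76% and 1.07% of the UMIs. The spleen libraries held 160179, 224811 and 97735 UMIs, so a minimum of 10 UMIs was a higher bar in the shallowest, spleen 3. Median sizes were 14, 13 and 13 UMIs, and 202, 322 and 48 of the large clonotypes had 10 to 19 UMIs, 55, 80 and 11 had 20 to 49, and 21, 22 and 2 had 50 or more. At the border, 42, 71 and 12 clonotypes had exactly 10 UMIs and 73, 125 and 17 had 9. Reads per UMI were close between large clonotypes (12.96, 8.49 and 20.8) and single ones (13.4, 8.97 and 21.4). Base quality was not: the lowest score within the CDR3 was on average 58 in large clonotypes of each spleen and 44.8, 44.5 and 44.9 in single ones. Single clonotypes that differed at 1 base from a large one of the same V gene, J gene and length, as a sequencing error would, numbered 180, 369 and 30. That is 0.227%, 0.404% and 0.0469% of single clonotypes, and neighbours of smaller clonotypes were not counted.

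The 3 largest clonotypes of each spleen show how varied the class was. Their CDR3 sequences are printed from the conserved cysteine codon to the phenylalanine codon of the J gene, with capitals for the bases that lie between the V part and the J part:
Spleen 1, Trbv13-1 and Trbj2-1: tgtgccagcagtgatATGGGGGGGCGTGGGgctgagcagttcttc
Spleen 1, Trbv15 and Trbj1-1: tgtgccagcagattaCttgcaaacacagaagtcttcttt
Spleen 1, Trbv13-3 and Trbj2-3: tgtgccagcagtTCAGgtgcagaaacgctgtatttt
Spleen 2, Trbv13-1 and Trbj2-5: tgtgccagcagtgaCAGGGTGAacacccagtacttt
Spleen 2, Trbv4 and Trbj1-1: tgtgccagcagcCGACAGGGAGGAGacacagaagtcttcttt
Spleen 2, Trbv4 and Trbj2-7: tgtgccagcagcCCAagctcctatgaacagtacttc
Spleen 3, Trbv13-3 and Trbj2-1: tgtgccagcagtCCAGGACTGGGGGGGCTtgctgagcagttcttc
Spleen 3, Trbv13-2 and Trbj2-7: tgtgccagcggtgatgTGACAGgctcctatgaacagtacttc
Spleen 3, Trbv13-2 and Trbj1-5: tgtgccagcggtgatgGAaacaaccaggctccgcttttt

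In this order they held 359, 177 and 162 UMIs in spleen 1, 234, 202 and 193 UMIs in spleen 2, and 101, 66 and 34 UMIs in spleen 3. The largest of each spleen was 0.224%, 0.104% and 0.103% of its library. Between 1 and 17 bases lay between the V and the J part. Matched by CDR3 nucleotides, V gene and J gene, none of the 9 was seen in the spleen of another mouse. In the kidney of their own mouse, 8 of the 9 were seen, with 10, 3, 0, 21, 17, 10, 4, 1 and 5 UMIs in the order printed.

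A second set of large clonotypes recurred between mice. By amino acid sequence, V gene and J gene, the large clonotypes came to 698 receptors, of which 37 were large in 2 spleens and 3 in all 3. Of these 40, 16 had at least 1 CDR3 with no base at all between the V and the J part, 28 had one with at most 3, and 12 used Trbv1. A receptor with several CDR3 forms could reach the first 2 counts by any of them. The same counts over all 698 receptors are not given here, so these are not shown to be particular to the recurrent ones. The lengths were 9 to 15 residues with a median of 12, and 6 of the 40 were seen in a kidney of a mouse in which they were large. Of all large clonotypes of spleens 1, 2 and 3, 24.1%, 28.3% and 34.4% were found in the kidney of the same mouse. Those shares count nucleotide clonotypes within a mouse, while the 6 count receptors over several mice, so the values are not directly comparable. The 5 with the highest UMI count in the lower of their spleens are printed, since they show joints with few or no added bases:
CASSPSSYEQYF, Trbv3 and Trbj2-7, first form: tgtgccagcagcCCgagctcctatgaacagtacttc
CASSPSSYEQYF, second form: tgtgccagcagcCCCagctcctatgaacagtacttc
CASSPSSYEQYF, a further form: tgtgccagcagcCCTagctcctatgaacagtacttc
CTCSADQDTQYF, Trbv1 and Trbj2-5, first form: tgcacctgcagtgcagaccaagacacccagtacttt
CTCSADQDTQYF, second form: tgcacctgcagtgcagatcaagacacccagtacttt
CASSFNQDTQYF, Trbv4 and Trbj2-5: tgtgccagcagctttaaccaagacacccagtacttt
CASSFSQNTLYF, Trbv4 and Trbj2-4: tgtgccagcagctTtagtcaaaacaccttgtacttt
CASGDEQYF, Trbv13-2 and Trbj2-7: tgtgccagcggtgatgaacagtacttc

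The receptor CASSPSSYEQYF with Trbv3 was large in all 3 spleens and in all 3 by each of its 3 nucleotide forms. The first form held 51, 36 and 20 UMIs in spleens 1, 2 and 3, the second 28, 29 and 18, and the last 17, 12 and 10. The same amino acid sequence with Trbv4, in the nucleotide form printed above for spleen 2, held 193 UMIs there and 0 in the other spleens. A CDR3 carried only the V gene name given to it in each library. The same nucleotides under another V gene name were therefore not matched here. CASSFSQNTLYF held 31, 31 and 20 UMIs and was also large in every spleen. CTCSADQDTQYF held 16, 13 and 6 UMIs by its first form and 16, 13 and 7 by its second, so that it was below the minimum in spleen 3. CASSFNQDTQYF held 21, 33 and 0 UMIs, and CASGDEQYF 18, 18 and 5.

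Large clonotypes had shorter CDR3s than single clonotypes in all 3 spleens. The mean length was 13.36, 13.30 and 13.36 amino acids for large clonotypes of spleens 1, 2 and 3 and 13.88, 13.88 and 13.87 for single ones. These spleen means did not overlap between the classes, but the lengths of their clonotypes did. The SD over clonotypes was 1.41, 1.49 and 1.34 residues for large and 1.37, 1.37 and 1.37 for single ones. The mean difference was -0.54 ± 0.036 (SD of the differences, n = 3). With 3 mice, an exact two-sided sign-flip permutation test cannot give a p below 0.25, which was the value here and for each difference below that had 1 direction in all mice. Adjusted over the 8 comparisons of this kind, these values were 0.286. The difference was -0.61 when single clonotypes were weighted to the V and J genes of the large ones.

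Counted by length, 5 of the 15 lengths tested differed between the classes (33.3%) by edgeR (quasi-likelihood test, Benjamini-Hochberg adjusted). CDR3s of 10, 11 and 12 residues had higher shares among large clonotypes and those of 15 and 16 residues lower ones. A length of 12 residues was found in 17.3%, 17.5% and 26.2% of large clonotypes and in 10.6%, 10.5% and 10.7% of single ones, a log2 fold change of 0.78 ± 0.14 (SE, adjusted p = 0.000116). A length of 11 residues was found in 9.71%, 9.43% and 3.28% of large clonotypes against 3.36%, 3.36% and 3.46%, which is higher in spleens 1 and 2 but not in spleen 3. A length of 15 residues was found in 18.7%, 13.2% and 11.5% of large against 21.9%, 22.1% and 21.7% of single clonotypes, and a length of 16 in 2.88%, 4.95% and 6.56% against 7.88%, 7.78% and 7.87%. Length 10 rested on 14 large clonotypes. The count of lengths called was 3, 0 and 2 without spleens 1, 2 and 3 in turn.

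The classes also differed where V and J join. Between the V and the J part, large clonotypes had 6.65, 6.40 and 6.87 bases and single clonotypes 9.06, 9.09 and 9.01, a difference of -2.42 ± 0.28 (SD, n = 3; exact sign-flip permutation test, p = 0.25, the same adjusted over the 6 comparisons added after the data were seen). Weighting to V and J use left it at -2.42. Large clonotypes had also lost fewer J bases, with 2.32, 2.26 and 2.16 trimmed against 2.85, 2.85 and 2.84, while the V bases trimmed were 2.38, 2.34 and 2.70 against 2.42, 2.42 and 2.43. In 10.8%, 10.4% and 6.56% of large clonotypes no base lay between the parts, against 1.79%, 1.65% and 1.88% of single ones. No Trbd gene could be assigned in 43.9%, 45.3% and 41.0% of large and in 27.5%, 27.3% and 27.5% of single clonotypes, a difference of 15.95 ± 2.28 percentage points. Clonotypes with a Trbd gene had 2.03, 1.90 and 2.11 bases that neither gene accounted for when large, and 2.59, 2.61 and 2.55 when single.

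Trbd1 was assigned to 64.1%, 66.4% and 61.1% of the large clonotypes that had a Trbd gene and to 60.4%, 61.3% and 59.96% of the single ones. The rest had Trbd2, which can join only the Trbj2 cluster. The difference of 3.31 ± 1.98 percentage points (SD, n = 3) was turned to -13.8 by a minimum of 20 UMIs and to -4.25 by counting amino acid clonotypes, so that it had no settled direction. The number of nucleotide sequences found for the same receptor in the same spleen was 1.87, 2.08 and 1.70 per large clonotype and 1.22, 1.26 and 1.17 per single one.

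**Figure D1:**
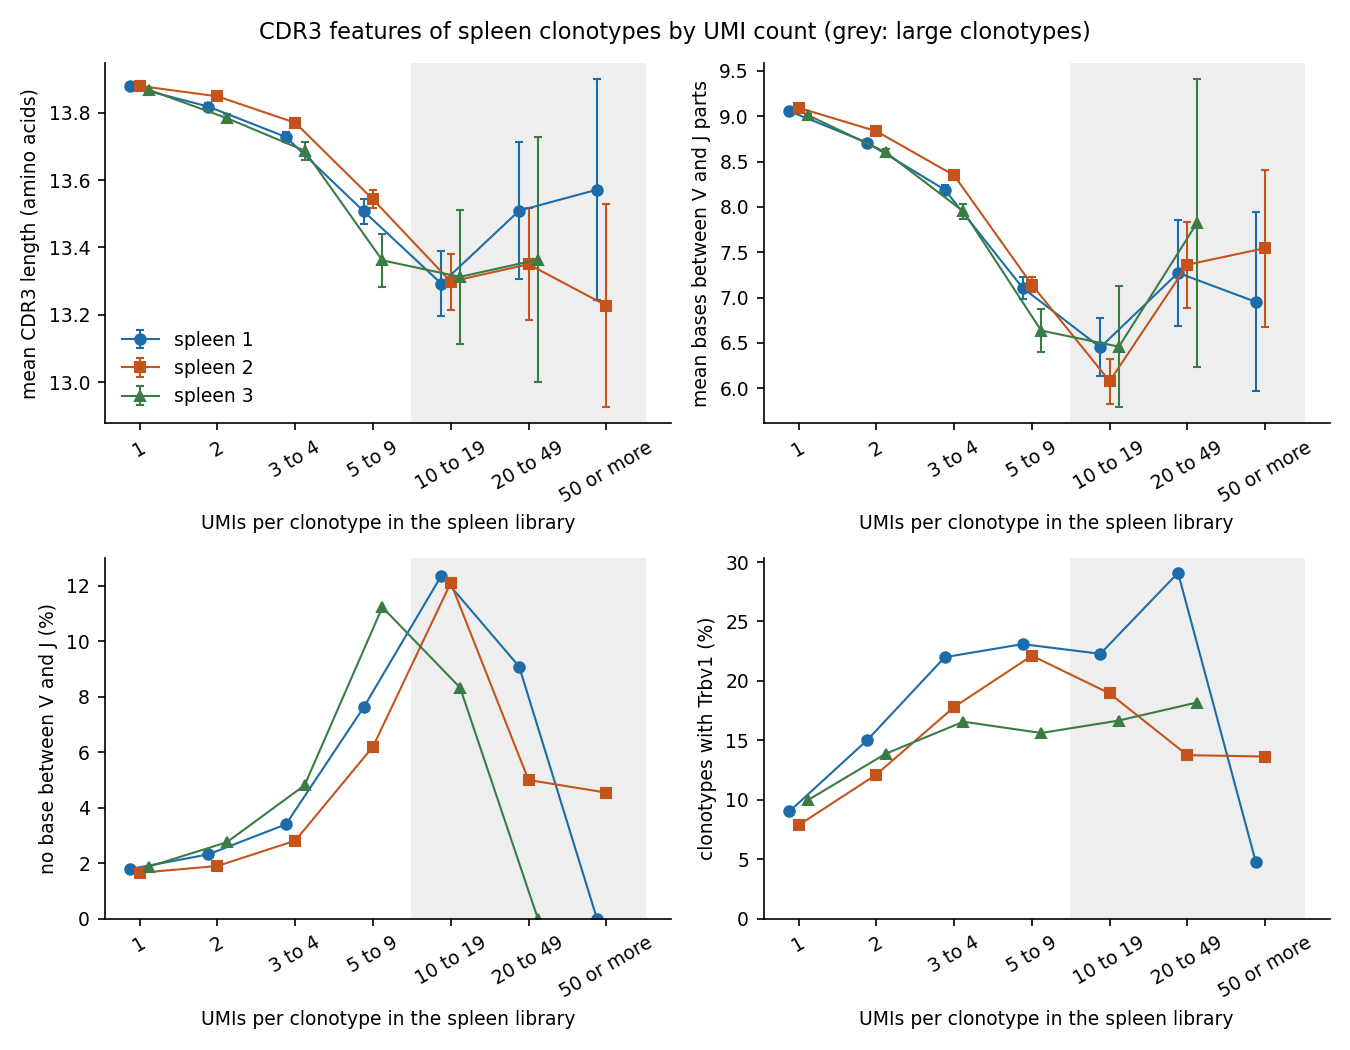
CDR3 features (vertical axes: mean length in amino acids, mean bases between the V and J parts, percent of clonotypes with no base between them, percent with Trbv1) by UMIs per clonotype (horizontal axis) for spleens 1, 2 and 3. Error bars on the 2 upper plots are standard errors over clonotypes, bins under 10 clonotypes are left out, and in each spleen length and bases fall from 1 UMI to 10 to 19 UMIs (grey: 10 or more).

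These features changed by degrees with the UMI count and not at 10 UMIs alone. Mean bases between V and J were 8.71, 8.84 and 8.60 at 2 UMIs, 8.19, 8.35 and 7.95 at 3 to 4, 7.11, 7.14 and 6.64 at 5 to 9, and 6.45, 6.08 and 6.46 at 10 to 19. Above that the course was not continued: they were 7.27, 7.36 and 7.82 at 20 to 49 UMIs, the last from 11 clonotypes. The share with no base between V and J was 12.4%, 12.1% and 8.33% at 10 to 19 UMIs and 9.09%, 5.00% and 0% at 20 to 49, where 0 of 11 clonotypes in spleen 3 allow a share of up to 27.3%. These are values over clonotypes of the same libraries and were given no test.

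Trbv genes were not used alike by the classes. Of 24 Trbv genes tested, 6 were called (25.0%) in edgeR's quasi-likelihood test, 2 with a higher and 4 with a lower share among large clonotypes. Trbv1 was found in 22.3%, 17.7% and 16.4% of large clonotypes and in 9.01%, 7.86% and 9.97% of single ones, a log2 fold change of 1.19 ± 0.17 (SE, adjusted p = 2.00e-07). Every spleen's large clonotypes lay above all single shares. Trbv13-1 was found in 10.4%, 10.1% and 8.20% against 6.89%, 6.65% and 7.09%, a log2 fold change of 0.58 ± 0.22 (SE, adjusted p = 0.0432). The Trbv13-1 call was kept in 6 of 15 alternative settings, against 12 of 15 for Trbv1, and its direction in all. These settings are not independent checks. Without the filter on low counts, the same 24 genes were tested with the same values. The filters on reads and on error neighbours left the large clonotypes unchanged. With amino acid clonotypes, the log2 fold change of Trbv13-1 was 0.12 (edgeR, adjusted p = 0.540).

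Trbv31 was the gene with the clearest lower share. It was found in 1.80%, 3.30% and 3.28% of large clonotypes and in 8.49%, 8.58% and 7.41% of single ones, a log2 fold change of -1.62 ± 0.32 (SE, adjusted p = 8.15e-05). Trbv19 was found in 2.16%, 3.54% and 1.64% against 5.50%, 6.93% and 6.00%, a log2 fold change of -1.14 ± 0.33 (SE, adjusted p = 0.00904). Trbv2 was found in 0.719%, 3.77% and 3.28% against 5.20%, 5.30% and 4.05%, so that spleen 1 carried most of its difference (adjusted p = 0.0327, and 0.384 without spleen 1). Trbv14 was assigned to 1, 1 and 0 large clonotypes, against 1.42%, 1.66% and 1.56% of single ones (adjusted p = 0.0199). Without spleen 1 only Trbv1 and Trbv31 were called, without spleen 2 no gene was (4 at an unadjusted p under 0.05), and without spleen 3 all but Trbv14 were.

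**Figure D2:**
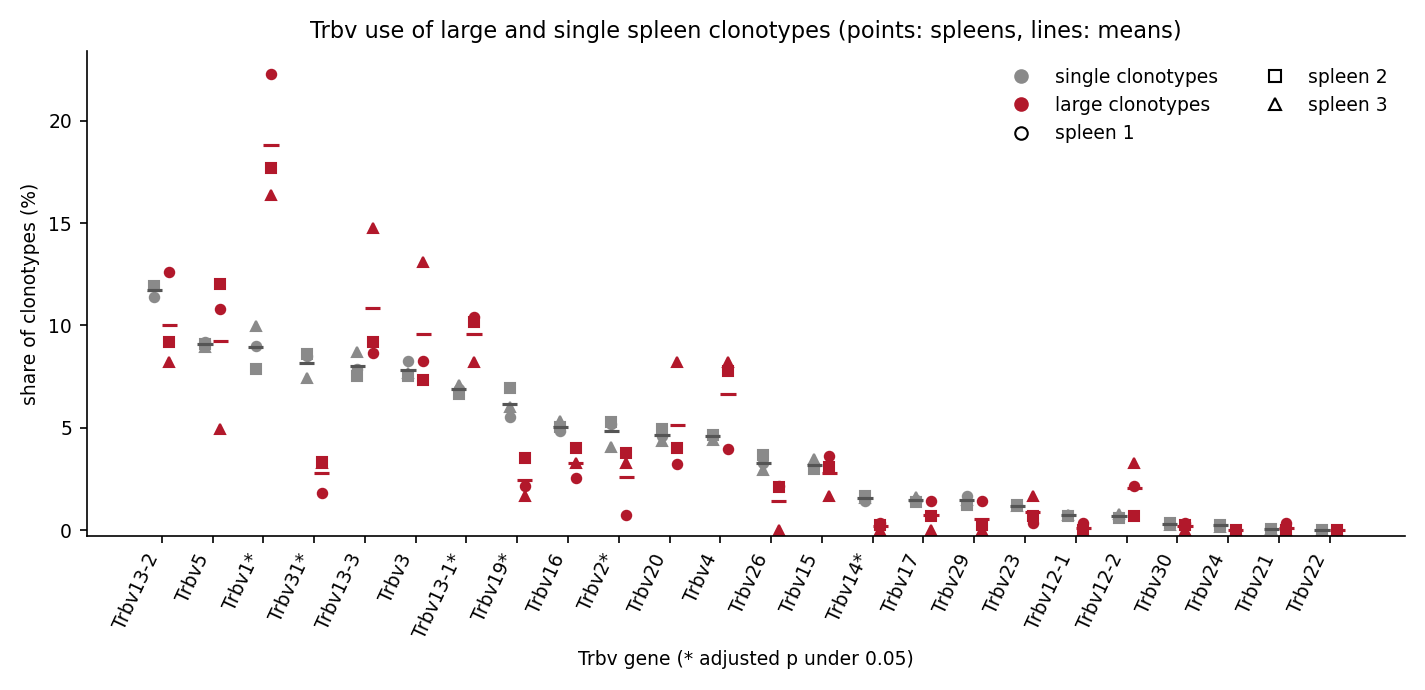
Share of clonotypes (vertical axis, percent) with each of the 24 Trbv genes (horizontal axis) for single (grey) and large (red) clonotypes, with 1 point per spleen and a line at the mean of 3. Trbv1 is at 16.4% to 22.3% of large and 7.86% to 9.97% of single clonotypes, and Trbv31 at 1.80% to 3.30% against 7.41% to 8.58%.

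The Trbv1 share also moved with small UMI counts. It was 15.0%, 12.1% and 13.9% at 2 UMIs, 22.0%, 17.8% and 16.6% at 3 to 4 UMIs, and 23.1%, 22.1% and 15.6% at 5 to 9 UMIs. Trbv31 moved the other way, with 5.68%, 6.02% and 5.28% at 2 UMIs and 3.78%, 3.82% and 4.43% at 3 to 4. Among clonotypes of 50 or more UMIs, Trbv1 was at 4.76% of 21 and 13.6% of 22 in spleens 1 and 2. Whether mRNA per cell or capture differs between V genes was not tested. Large Trbv1 clonotypes had 5.89, 5.45 and 6.10 bases between V and J, and the other large clonotypes 6.87, 6.60 and 7.02, so that the difference from single clonotypes was seen with and without Trbv1. Without Trbv1 clonotypes, lengths 10, 11, 12 and 15 were still called. Length 16 was not (adjusted p = 0.135), with a log2 fold change of -0.69 against -0.85 with them. In the kidney libraries, Trbv1 made up 13.3%, 10.5% and 12.7% of clonotypes.

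The CD4+ gate can also hold type I NKT cells, whose β chains use Trbv1, Trbv13-1, Trbv13-2, Trbv13-3 and Trbv29. These 5 genes together made up 55.4%, 46.5% and 47.5% of large clonotypes and 36.8%, 35.2% and 39.1% of single ones. Trbv1 and Trbv13-1 were called higher and the other three were not called, beside 2 of 24 genes called higher (8.33%) and 4 lower (16.7%) in all, and the median log2 fold change was 0.29 against -0.39 over all 24 genes. Trbv29 was at 1.44%, 0.236% and 0% of large clonotypes (5 in all) and 1.67%, 1.24% and 1.45% of single ones. Trbv13-2, a main V gene of these cells, was at 12.6%, 9.20% and 8.20% of large and 11.4%, 11.9% and 11.9% of single clonotypes. The α chain that marks NKT cells was not sequenced, and their part in the result was not tested.

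No Trbj gene was called among 12 tested (0%). One, Trbj1-3, had an unadjusted p under 0.05 (0.0302, adjusted 0.285), with 7.19%, 9.20% and 6.56% of large and 5.65%, 5.85% and 5.35% of single clonotypes. DESeq2 also called 0 genes, but with large clonotypes set at 5 or more UMIs, 5 genes were called. The 6 genes of the Trbj1 cluster together made up 32.4%, 35.4% and 27.9% of large and 35.2%, 36.2% and 33.7% of single clonotypes. Their median log2 fold change was -0.32, that of the 6 Trbj2 genes 0.04, and that of all 12 -0.04.

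Residues were counted in the middle of the CDR3, leaving out 4 at each end, which mostly come from the V and J genes. Of the 20 amino acids, 7 differed in edgeR's quasi-likelihood test (35.0%), but none of the 7 was called in any fit that left out a spleen (4, 3 and 6 at an unadjusted p under 0.05), and DESeq2 called 0 (1 unadjusted). Glycine, which Trbd genes encode in every forward reading frame, made up 19.5%, 17.5% and 20.8% of middle residues in large and 22.5% in single clonotypes of each spleen, a log2 fold change of -0.26 ± 0.08 (SE, adjusted p = 0.0167). Arginine made up 3.76%, 4.45% and 4.59% against 5.67%, 5.67% and 5.65%, a log2 fold change of -0.43 ± 0.13 (SE, adjusted p = 0.0152). Leucine was also lower in the fit (adjusted p = 0.0299), with 3.90%, 3.51% and 4.89% against 4.95%, 4.85% and 4.84%, which is not lower in spleen 3.

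Asparagine, serine and alanine had higher shares in large clonotypes of all 3 spleens. Asparagine made up 9.34%, 10.6% and 10.1% of middle residues against 8.18%, 8.29% and 8.05% in single clonotypes (log2 fold change 0.29 ± 0.10 SE, adjusted p = 0.0216), and serine 8.73%, 9.47% and 9.17% against 7.51%, 7.49% and 7.32%. Alanine made up 10.3%, 9.38% and 9.79% against 8.26%, 8.10% and 8.46%. Aspartate was higher in the fit (adjusted p = 0.0152), with 11.1%, 12.4% and 7.65% against 9.09%, 9.07% and 9.39%, so that spleen 3 went the other way. Without Trbv1 clonotypes, alanine (log2 fold change 0.01, adjusted p = 0.943) and leucine (-0.27, adjusted p = 0.0792) were no longer called, and the other 5 were. Among clonotypes of 13 or 14 residues no amino acid was called, with a lowest adjusted p of 0.0532, but the fold changes kept their direction. On the log2 scale they were 0.41 for asparagine, 0.31 for aspartate, 0.29 for alanine and -0.51 for leucine, against 0.29, 0.32, 0.26 and -0.37 over all lengths. They were 0.22 for serine, -0.22 for glycine and -0.26 for arginine, against 0.29, -0.26 and -0.43. Residues of the same CDR3 are not independent of each other or of its length.

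Over all 20 residues, 4 were called higher (20.0%) and 3 lower (15.0%). By class, 1 of 2 acidic residues was called higher, 1 of 3 basic residues lower, 2 of 6 small or flexible ones higher and 1 lower, and 1 of 9 hydrophobic ones higher and 1 lower, which with so few members says nothing particular to a class. Acidic residues together made up 18.1%, 17.3% and 14.4% of middle residues in large and 14.7%, 14.7% and 15.0% in single clonotypes, so that spleen 3 went the other way. The median log2 fold changes were 0.19 for acidic, -0.43 for basic, 0.07 for small or flexible and -0.29 for hydrophobic residues, against -0.24 over all 20. Hydrophobic residues at both positions 6 and 7 of the CDR3, counted from the cysteine, have been linked to self-reactivity of the receptor. They were found in 4, 5 and 2 large clonotypes, which is 1.44%, 1.18% and 3.28%, and in 2.46%, 2.34% and 2.52% of single ones. The difference of -0.48 ± 1.07 percentage points (SD, n = 3) was within its spread between mice (exact sign-flip permutation test, p = 0.5).

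**Figure D3:**
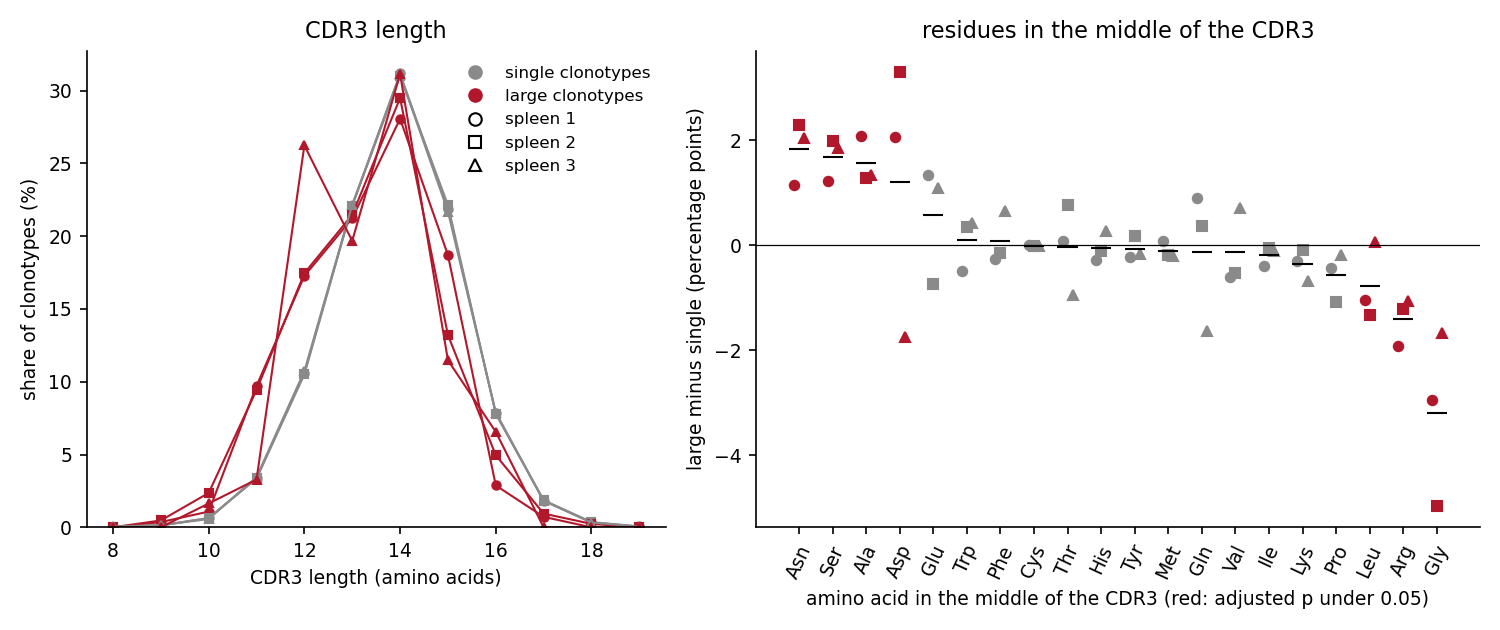
Left, share of clonotypes (percent) by CDR3 length in amino acids for single (grey) and large (red) clonotypes of each spleen; right, large minus single share (percentage points) of each amino acid in the middle of the CDR3, 1 point per spleen with a line at the mean. At 12 residues large clonotypes are at 17.3% to 26.2% and single ones at 10.5% to 10.7%, and aspartate and leucine are the called residues whose 3 spleens differ in direction.

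Large clonotypes were found far more often in the kidney of the same mouse. Of 278, 424 and 61 large clonotypes, 67, 120 and 21 had at least 1 UMI in that kidney, which is 24.1% (95% Clopper-Pearson interval 19.2 to 29.6), 28.3% (24.1 to 32.8) and 34.4% (22.7 to 47.7). Of the single clonotypes, 48, 82 and 67 were found there, or 0.0605%, 0.0899% and 0.105%. The mean difference was 28.9 ± 5.17 percentage points (SD, n = 3; exact sign-flip permutation test, p = 0.25). With at least 2 kidney UMIs required, the means were 17.1% and 0.0203%. The kidney libraries held only 773, 1248 and 693 UMIs, so 0 UMIs allow a share of up to 0.388%, 0.240% and 0.433% (3 counts; limits and intervals cover counting error only). A large clonotype that was not found was therefore not shown to be absent.

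The match was mostly to the mouse's own kidney. Large clonotypes of spleen 1 were found 67 times in kidney 1, 3 times in kidney 2 and 0 times in kidney 3. Those of spleen 2 were found 4, 120 and 2 times in kidneys 1, 2 and 3, and those of spleen 3 were found 2, 1 and 21 times. In kidneys of other mice, the mean share was 0.540%, 0.708% and 2.46% for large clonotypes, and the mean over mice was 1.24% against 0.0194% for single ones. With at least 2 kidney UMIs, only 0.0393% and 0.00269% remained.

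Seen from the kidney, large spleen clonotypes held 27.8%, 33.7% and 9.81% of its UMIs in mice 1, 2 and 3, with up to 20, 40 and 12 UMIs each. Single spleen clonotypes held 8.54%, 8.73% and 13.6%. Of the 53, 75 and 36 kidney clonotypes with at least 3 UMIs, 20, 39 and 9 were large in the spleen of the same mouse. That is 37.7%, 52% and 25%, beside 13.9%, 15.8% and 4.44% of all kidney clonotypes. Mouse 3, with the shallowest spleen and the fewest large clonotypes, had the lowest share of kidney UMIs in large clonotypes.

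Spleens of other mice also held large clonotypes more often. Matched by CDR3 nucleotides and both genes, 24.3%, 28.8% and 29.5% of the large clonotypes of spleens 1, 2 and 3 were found in another spleen (mean of the other two), against 3.46%, 2.71% and 4.45% of single ones, a difference of 24.0 ± 2.78 percentage points (SD, n = 3; exact sign-flip permutation test, p = 0.25). Matched by amino acid sequence, the means over spleens were 42.2% and 15.9%.

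**Figure D4:**
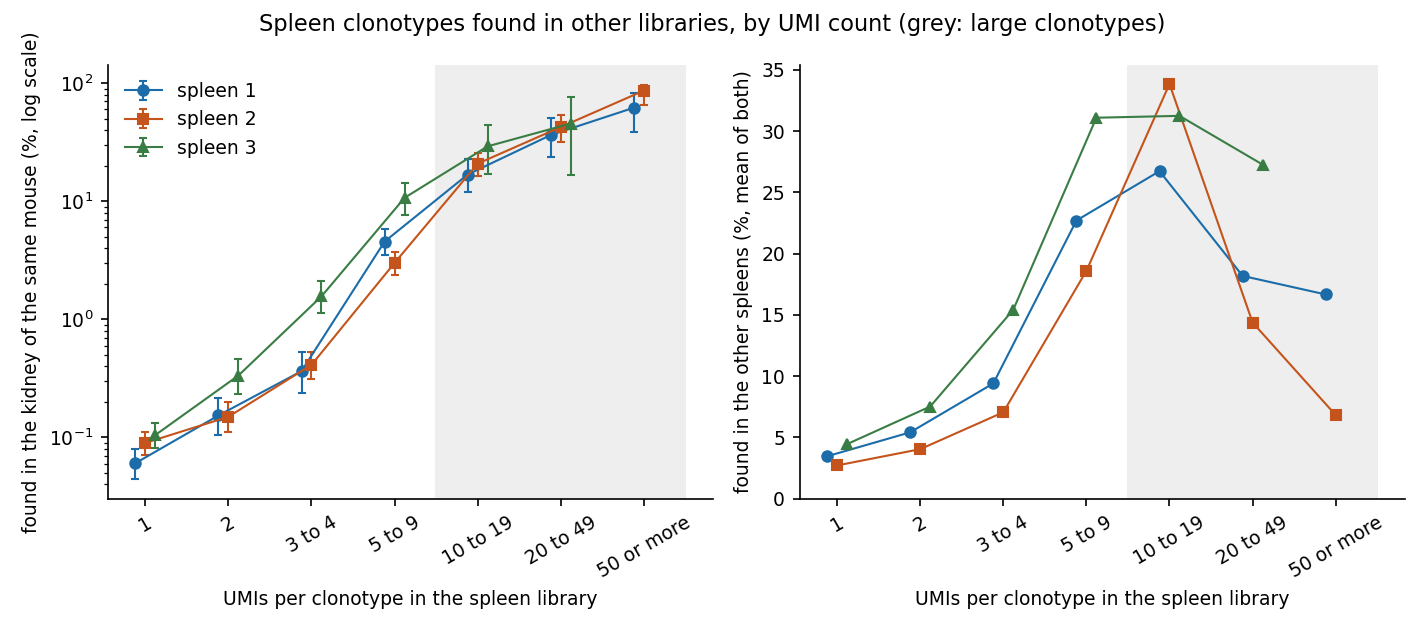
Share of spleen clonotypes found in the kidney of the same mouse (left, percent on a log scale, bars: 95% Clopper-Pearson intervals) and in the other spleens (right, percent, mean of both) by UMIs per clonotype, for spleens 1, 2 and 3, without bins under 10 clonotypes. The kidney share rises from 0.0605% to 0.105% at 1 UMI to 36.4% to 45.5% at 20 to 49 UMIs, and the share in other spleens is higher at 10 to 19 UMIs than at 1 UMI in each spleen.

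The 2 kinds of sharing had different courses with size. The kidney share was 16.8%, 20.8% and 29.2% at 10 to 19 UMIs, 36.4%, 42.5% and 45.5% at 20 to 49, and 61.9% and 86.4% at 50 or more in spleens 1 and 2. The share in other spleens was 26.7%, 33.9% and 31.3% at 10 to 19 UMIs, 18.2%, 14.4% and 27.3% at 20 to 49, and 16.7% and 6.82% at 50 or more in spleens 1 and 2. From 10 to 19 to 20 to 49 UMIs, the kidney share was higher and the share in other spleens lower in each spleen, with 11 clonotypes behind the last value of spleen 3.

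The large clonotypes were then split by presence in the kidney, a split that was made after the data were seen. Those found in the kidney had longer CDR3s, with means of 13.64, 13.72 and 13.81 residues in mice 1, 2 and 3 against 13.27, 13.14 and 13.13 for those not found. They had 7.75, 7.82 and 8.29 bases between V and J against 6.30, 5.84 and 6.13, a difference of 1.86 ± 0.37 (SD, n = 3; exact sign-flip permutation test, p = 0.25). No base lay between V and J in 1.49%, 2.50% and 0% of those found (0 of 21 in mouse 3, which allow up to 14.3%) and in 13.7%, 13.5% and 10.0% of those not found. In other spleens, 12.7%, 7.08% and 9.52% of those found were seen and 28.0%, 37.3% and 40.0% of those not found, a difference of -25.3 ± 8.71 percentage points.

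Those found were also larger, with medians of 19, 18 and 14 UMIs against 13, 12 and 12. Within 10 to 19 UMIs, where medians were 14, 13 and 13 against 12, 12 and 11, they still had 7.79, 7.73 and 8.29 bases between V and J against 6.18, 5.64 and 5.71. Their share in other spleens was then 14.7%, 9.70% and 10.7% against 29.2%, 40.2% and 39.7%. Trbv1 had no common direction, with 17.9%, 14.2% and 23.8% of those found and 23.7%, 19.1% and 12.5% of those not found. Single clonotypes of the same spleens, at 9.01 to 9.09 bases, still lay above the large clonotypes found in the kidney.

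**Figure D5:**
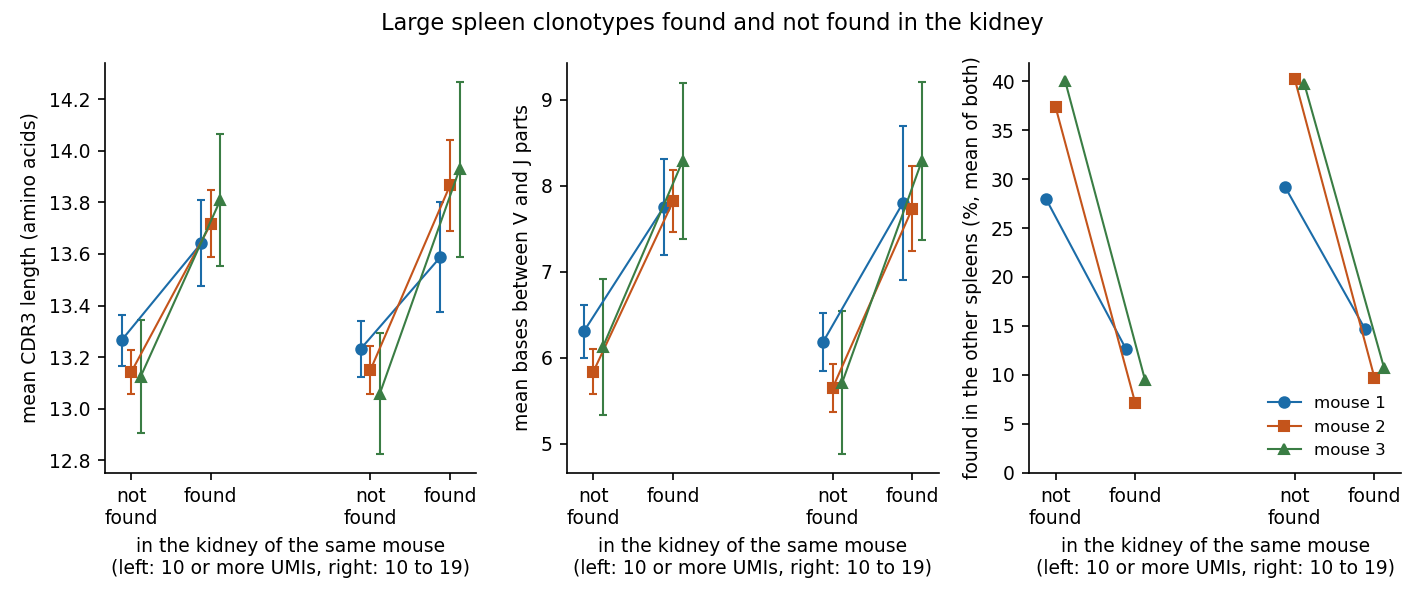
Large spleen clonotypes not found and found in the kidney of the same mouse: mean CDR3 length (amino acids), mean bases between V and J, and share found in the other spleens (percent, mean of both), with 1 line per mouse and, on the 2 left plots, standard errors over clonotypes. At 10 or more UMIs and at 10 to 19 UMIs alike, those found had more bases between V and J (7.73 to 8.29 against 5.64 to 6.30) and were seen less in other spleens.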

How the data were processed

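The authors sequenced 5′ RACE products of TCR-β mRNA and assembled UMI-tagged reads into clones with MiXCR (reference build GRCm38 and R 4.4.2 per the labels). The deposited tables give, per clone, a count of UMIs and a count of reads, both raw, the fraction of each, and base quality scores. The authors' fraction values were not used for any result, and of the scores only the mean lowest CDR3 base quality is given above. No CDR3 nucleotide sequence occurred more than once per library in the authors' tables, so molecules with the same CDR3 and another V gene could not be seen apart.

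Clones with a stop codon or frameshift were left out, and the rest were summed by CDR3 nucleotide sequence, first V hit and first J hit. The parts of V, D and J were taken from the deposited alignment positions. Each difference was formed within a spleen, so that large and single clonotypes of a library are paired by construction, and was tested by an exact two-sided sign-flip permutation over the 3 mice. Counts of clonotypes (residues for amino acids) per gene, length or residue were tested with edgeR 4.0.16 (quasi-likelihood, mouse as block, library size the number of clonotypes or residues, no further normalization), for features with at least 10 over the 6 counts, with Benjamini-Hochberg adjustment over all features. Standard errors were derived from the fold change and F value. All 38 segment names matched RefSeq symbols of GRCm38.p6.

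The members, lists and tests were chosen with earlier results of these data known. Named are genes, lengths and residues with an adjusted p under 0.05, Trbd1 and Trbd2, the 3 largest clonotypes per spleen and 5 recurrent ones. Alternatives changed the UMI minimum, depth, clonotype definition, error and read filters, V and J weighting, mice, block, normalization (TMM), filter and tool (DESeq2 1.42.0). Differences in bases between V and J, in nucleotide sequences per receptor and within large clonotypes were added after the data were seen. Software was R 4.3.3, Python 3.11.15, pandas 2.3.3, numpy 2.4.6, matplotlib 3.10.9 and scipy 1.17.1. The edgeR step was also run on simulated Trbv and Trbj counts. In these, the difference between classes had no spread between mice, and lengths and residues were not simulated. The simulation therefore cannot show how reliable the calls in the real data are. Depth was 97735 to 224811 UMIs per spleen and 693 to 1248 per kidney.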

Additional observations from a re-analysis of the deposited data

Results flagged for a closer look

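Non-coding clones, which entered no comparison, also reached 10 UMIs: 3 in spleen 1, 7 in spleen 2 and 0 in spleen 3. They are given because such clones lie outside every comparison and the 7 of spleen 2 are more than 3 counts, and the spleens, which differ in depth, were not compared. The largest held 42, 62 and 5 UMIs in spleens 1, 2 and 3. Those with at least 10 UMIs made up 1.07%, 1.62% and 0% of all clones of that size (0 of 61 in spleen 3, which allow up to 4.92%). Non-coding clones of any size held 4.85%, 4.74% and 4.61% of the UMIs. The latter are shares of molecules and not of clones, so the values are not directly comparable.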

How the results depend on the processing

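The direction of the mean difference did not depend on the setting for length, the share without a Trbd gene, non-templated bases, or the shares in the same kidney, other kidneys and other spleens, with ranges over 11 alternatives of -0.65 to -0.41 residues, 12.2 to 21.0 points, -1.38 to -0.34 bases, 9.48 to 49.7 points, 0.0366 to 2.56 points and 14.3 to 54.1 points. For other kidneys, the direction was not shared by all mice in 4 of these settings. The differences were 0.200 ± 0.376 points (SD) with at least 20 UMIs and 0.0366 ± 0.0671 with at least 2 kidney UMIs. They were 1.05 ± 1.26 at equal depth and 0.976 ± 0.963 with the top 100. The Trbd1 difference reversed with at least 20 UMIs (-13.8 points) and with amino acid clonotypes (-4.25), and the difference at hydrophobic positions 6 and 7 with the top 100 clonotypes (0.183). Leucine reversed with at least 20 UMIs (log2 fold change 0.094) and with the top 100 (0.086), uncalled in both. Trbv, Trbj, length and residue calls, 6, 0, 5 and 7 as reported, became 17, 5, 8 and 16 with at least 5 UMIs and 12, 8, 6 and 16 with amino acid clonotypes. Trbv, length and residue calls became 0, 1 and 0 with at least 20 UMIs, 2, 1 and 1 at equal depth, and 0, 1 and 0 with the top 100. Trbv calls were 2 with TMM (1 higher, 1 lower) and 2 with DESeq2 (1 and 1), each time Trbv1 and Trbv31. Residue calls were 5 with TMM (4 higher, 1 lower), 0 with DESeq2 and 0 among clonotypes of 13 or 14 residues. Length calls were 6 with DESeq2 (5 higher, 1 lower), of which 4 were also called in the main fit. The median log2 fold change over lengths was 0.90 with DESeq2 against -0.85 in the main fit. Tested lengths such as 6 and 20 had 0 large clonotypes. The further DESeq2 calls therefore do not show that more lengths had a higher share. Leaving out a spleen gave 0 to 5 Trbv calls, 0 to 3 length calls and 0 residue calls, with 2 mice left in each fit. Without the replicate block, 6 Trbv, 0 Trbj, 6 lengths and 8 residues were called, so leaving out the block ended no call. The causes were not tested. Depth limits spleen 3 (61 large clonotypes) and every absence from a kidney library.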
